A study of Mus musculus with 8 samples.

Results

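The 4 arrays described here are those with a WT genotype label, out of 8 in a study of mouse incisor dental epithelia that set WT samples beside samples homozygous null for Bmi1, which encodes a Polycomb protein. Only the WT arrays were used, and they were described by level and rank across genes, with no comparison between genotypes. Each array carried Cy3-labelled total RNA from a WT sample of incisor dental epithelia on a mixed genetic background, with no other allele, treatment or agent in the labels. Incisors had been soaked whole in accumax, a cell-detachment solution, before the epithelium was pulled off the mesenchyme mechanically and its RNA was purified on columns. The labels used here give no age and no sex, and do not say whether each sample came from its own animal, so the spread between the 4 arrays measures only these samples and may in part be technical. For WT replicate 1 the title and the deposited file carry unlike study numbers, and the array was taken as the labels link it.

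The mouse incisor grows throughout life because epithelial stem cells in the cervical loop at its base keep supplying new cells. Their progeny divide, then turn into ameloblasts that secrete enamel matrix built from amelogenin, ameloblastin and enamelin, and later clear that matrix with proteases while mineral takes its place. RNA from the whole epithelium therefore mixes stem cells, dividing progenitors, secreting and maturing ameloblasts, and the supporting layers called stratum intermedium and stellate reticulum.

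A gene was counted as measured when at least 1 of its probes was well above background, by the scanner software, on all 4 arrays. Of 17178 genes that the probes could be matched to, 13498 (78.6%) were measured, 2451 (14.3%) were well above background on no array, and 1229 lay between these. Levels are log2 of the background-corrected signal minus the 75th percentile of that array's noncontrol probes, so 0 is the 75th percentile, and a gene with several measured probes is given by its brightest. Measured genes ran from -6.72 to 7.36, with a median of 0.24. Of the noncontrol probes on WT replicates 1 to 4, those well above background made up 69.6%, 71.1%, 74.4% and 70.5%. Replicate 2 was the dimmest array, with a 75th percentile of 617 signal units against 1196, 1900 and 994 on replicates 1, 3 and 4, and its repeated spike-in spots varied most, with a median log2 SD of 0.21 over 4 controls against 0.06 to 0.07 over 8 controls on the other arrays. Across genes, which are not independent replicates, levels on any pair of arrays had a Pearson correlation between 0.975 and 0.988. The typical gene had an SD of 0.26 over the 4 arrays.

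The rank of a gene is the rank of its probe, since probes differ in how well they bind. Among the 4755 genes with at least 2 measured probes, the brightest and the dimmest probe differed by a median of 2.57 log2 units (5.92-fold), with quartiles of 1.21 and 4.28. The widest gaps were those of Lrrc58 (6.15 against -5.37), Sprr2a1 (5.80 against -5.62), Lasp1 (5.36 against -5.53), Syvn1 (4.46 against -6.08) and Anapc11 (4.59 against -5.85). Actb, which encodes the abundant cytoskeletal beta-actin, had a level of only -1.16 ± 0.89 (SD, n = 4) on its single probe, at percentile 33.3 of the measured genes. Levels were also set beside those of olfactory and vomeronasal receptor genes, chemosensory receptors of the nose. Of 1015 such genes 140 were measured, with a median level of -5.03, and 2396 measured genes (17.8%) lay below the 90th percentile of these receptors, at -3.08.

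**Figure D1:**
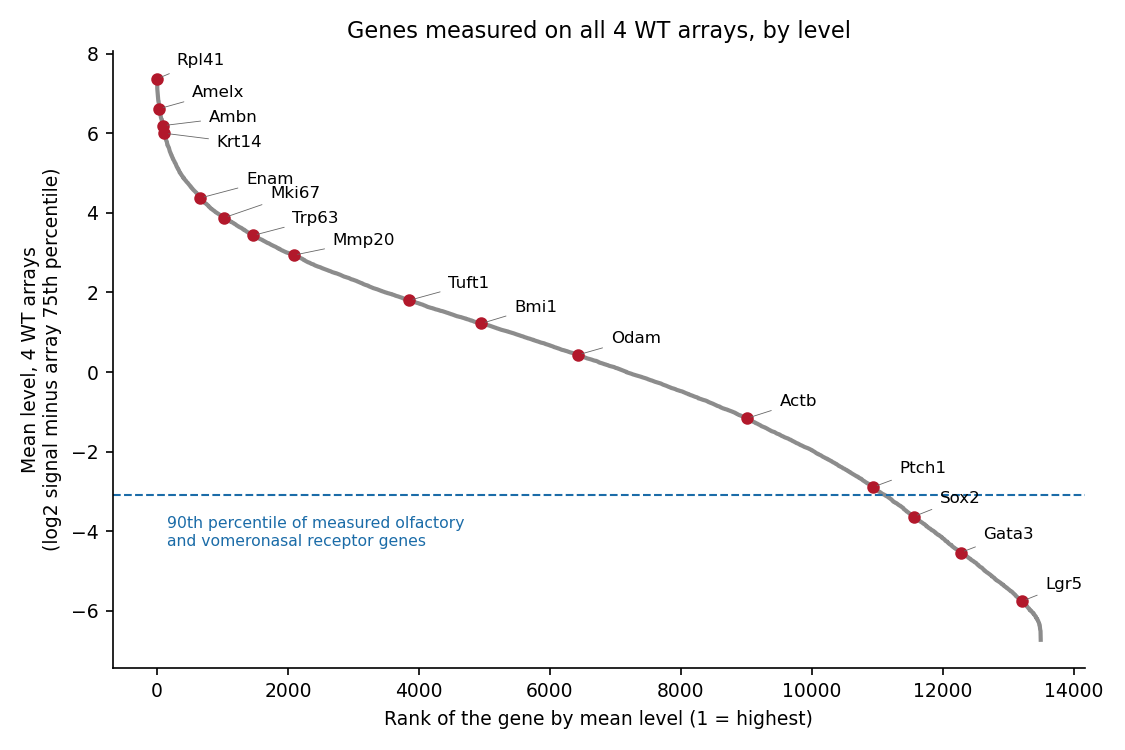
Mean level over the 4 WT arrays (log2 signal minus the array's 75th percentile) of the 13498 measured genes, in order of rank, with 16 genes named. Amelx, Ambn and Krt14 lie on the steep part at the left, and Sox2, Gata3 and Lgr5 lie under the dashed line at -3.08, which is the 90th percentile of measured olfactory and vomeronasal receptor genes.

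The epithelial label was checked against Amelx, Ambn, Krt14 and Trp63, and all 4 were measured. Amelx, which encodes amelogenin, the main protein of forming enamel, was at 6.76, 6.63, 6.15 and 6.93 on replicates 1 to 4. Ambn, which encodes ameloblastin, was at 6.13, 6.47, 5.80 and 6.35. Krt14, a keratin of basal epithelial cells, was at 6.38, 5.86, 5.75 and 5.997. These 3 genes stood among the highest 1% of measured genes, at percentiles 99.7, 99.3 and 99.2. Trp63, a transcription factor of stratified epithelia, was at 3.72, 3.44, 3.36 and 3.20 on its brighter probe, at percentile 89.1, and at -3.22 ± 0.40 (SD, n = 4) on its other probe. None of these 4 markers was missing from any array. Which array was lowest depended on the scaling: 3 of the 4 genes were lowest on replicate 3 here and 3 on replicate 2 under quantile normalization. For bright genes in general, small differences between arrays in the values below share this dependence.

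Transcripts of mesenchyme were also bright. All 24 markers of dental mesenchyme and odontoblasts on the array were measured (78.6% of all genes were), with a median level of 3.50 and a median percentile of 89.6 (83.4 when a gene's probes are averaged), and 12 of the 24 lay among the highest 10% of genes by level (10% of all genes, by construction). The collagen gene Col1a2 was at 6.65, 6.95, 6.28 and 6.92, and Lum, which encodes a proteoglycan of connective tissue, at 6.04, 6.88, 5.93 and 6.47. Bglap, which encodes the bone and dentin protein osteocalcin, was at 6.81, 4.93, 6.50 and 7.15. Col1a2 and Lum were highest on replicate 2, whereas Bglap was lowest there. Sparc (5.94 ± 0.74) and Col1a1 (5.80 ± 0.56) followed (SD, n = 4 each), and the lowest member was Sost, an osteocyte gene, at -4.83. Dspp, which encodes the dentin matrix protein of odontoblasts and is also transcribed briefly by young ameloblasts, was at 4.77, 3.41, 5.38 and 6.04. The log2 of the summed signal of the 24 markers was 9.24, 9.33, 9.34 and 9.84 on replicates 1 to 4. For the 16 measured genes of the list of basal and simple keratins, which also holds keratins of hair, it was 8.16, 8.15, 7.60 and 7.93. Sums of this kind compare arrays and not amounts of cells, because the probes differ. In such bulk RNA, fewer cells of a type and less RNA per cell cannot be told apart, and the part that mesenchymal RNA had in any level below was not tested.

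The lists of markers of other cells had lower medians than that of mesenchyme, though some of their genes were bright. Endothelial markers were measured for 17 of 18 genes, with a median level of 0.99 and with Cd34 (3.81), Emcn (3.55), Egfl7 (3.46), Robo4 (2.71) and Vwf (2.59) on top, Tie1 lowest (-2.15) and Erg on no array. All 22 macrophage and myeloid markers were measured, with a median of 0.77, led by the complement gene C1qc (3.14), the neutrophil gene S100a9 (2.83), Aif1 (2.76), H2-Ab1 (2.64) and Adgre1 (2.21), and lowest in Itgam (-4.55). Of 20 skeletal muscle markers 18 were measured, with a median of -2.06, led by Eno3 (1.92) and Myh4 (1.08) and lowest in Ckm (-5.41). Lymphocyte markers had a median of -3.98 (12 of 15 measured), and 9 of the 12 lay below the receptor yardstick of -3.08, which held for 17.8% of all measured genes. The highest of them was Cd79b (-1.13), the lowest Gzmb (-5.74), and Cd2 was on no array. Of 11 erythroid markers 6 were measured, with a median of -0.33. The globin gene Hbb-bt was at 4.70 and Hba-a1 at 3.11, while the red-cell membrane genes Epb42 and Rhag were on no array. Globin probes can also read the neighbouring near-identical globin genes. Of 14 nerve and Schwann cell markers 9 were measured, with a median of 1.09. They were led by Pmp22 (4.74), Ncam1 (3.84) and Tubb3 (2.75), which other cells also transcribe. The neurofilament gene Nefm and Prph were on no array.

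Enamel matrix genes spanned most of the upper range. All 9 genes of the list on the array were measured, with a median level of 3.15 and a median percentile of 86.6 (90.7 when a gene's probes are averaged), against a median level of 0.24 for all measured genes. After Amelx and Ambn came Fam20a, a partner of the secretory-pathway kinase that phosphorylates enamel proteins, at 4.38, 3.51, 4.91 and 5.32. Enam, which encodes enamelin, was at 4.41, 4.22, 4.45 and 4.41. Fam20c, the kinase itself, was at 3.28, 2.34, 3.35 and 3.62. Enam was the steadiest of the list, with an SD of 0.10, while Fam20a and Fam20c were both lowest on replicate 2 and highest on replicate 4. Mmp20, which encodes the protease of the secretory stage, was at 2.77, 1.82, 3.62 and 3.53, and Tuft1 at 2.03, 1.24, 2.10 and 1.83. The genes of the later, maturation stage were the most uneven. Klk4, which encodes the protease that clears the matrix, was at 1.71, -1.73, 2.49 and 0.43. Odam, which encodes a protein of maturation-stage ameloblasts and of the junction with the gum, was at 1.62, -2.11, 2.77 and -0.55. Both were highest on replicate 3 and lowest on replicate 2, and Klk4 ranged from percentile 28.3 to 80.6 of the measured genes over the arrays. Amtn, Odaph and Acp4 were not matched to a probe and were not analysed here.

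The promoters of these genes are shown because 6 of the 8 enamel list genes with a single RefSeq promoter hold very few CpG dinucleotides, in contrast to the genes of cell division. Each line gives the 100 bases before and the 20 bases from the annotated start, from RefSeq (GRCm38.p6), in lower case, with CpG dinucleotides and the hexamer TATAAA, searched on both strands, in capitals. The windows are chrX:169187190-169187309 on the minus strand for Amelx, chr5:88455891-88456010 (plus) for Ambn, chr5:88487875-88487994 (plus) for Enam, chr9:7628131-7628250 (plus) for Mmp20, chr7:43881060-43881179 (plus) for Klk4 and chr5:87884910-87885029 (plus) for Odam.
Amelx: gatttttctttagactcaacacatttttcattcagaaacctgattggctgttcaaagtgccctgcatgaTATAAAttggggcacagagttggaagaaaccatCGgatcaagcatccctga
Ambn: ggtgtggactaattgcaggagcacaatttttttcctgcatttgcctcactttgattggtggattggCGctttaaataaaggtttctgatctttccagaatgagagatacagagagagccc
Enam: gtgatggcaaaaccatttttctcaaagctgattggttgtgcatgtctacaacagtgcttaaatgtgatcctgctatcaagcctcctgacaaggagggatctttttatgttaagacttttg
Mmp20: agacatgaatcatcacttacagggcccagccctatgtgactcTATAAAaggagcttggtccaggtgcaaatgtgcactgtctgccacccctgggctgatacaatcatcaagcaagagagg
Klk4: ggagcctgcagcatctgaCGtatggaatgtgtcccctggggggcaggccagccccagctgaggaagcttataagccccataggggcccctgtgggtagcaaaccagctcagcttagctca
Odam: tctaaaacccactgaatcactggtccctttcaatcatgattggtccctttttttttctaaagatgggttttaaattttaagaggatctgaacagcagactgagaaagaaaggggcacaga
Over the whole 300-base window of the table (250 before the start and 50 from it), CpG counts were 3 for Amelx, 1 for Ambn, 0 for Enam, 0 for Mmp20, 3 for Klk4 and 1 for Odam, against 13 for Fam20a and 47 for Fam20c. TATAAA began at -31 in Amelx and at -58 in Mmp20, counted from the start, and at -137 in Enam, outside the stretch shown. The 8 genes had a median of 2 CpG, and 3 of them held TATAAA (37.5%), while the 8573 measured genes with 1 promoter had a median of 20 CpG and 8.82% held it. A match describes letters in the window and not a used site.

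Ambn, Enam and Odam lie in the gene cluster of secreted calcium-binding phosphoproteins on chromosome 5, which also holds the milk caseins. In RefSeq order, 16 protein-coding genes run from Csn1s1 to Enam, and 12 of them were on the array. Of these, 4 were measured (78.6% of all genes were) and 8 were well above background on no array (14.3% of all genes). Among the 8 were the casein genes Csn1s1, Csn2, Csn1s2a, Csn1s2b and Csn3. The measured 4 were Odam (0.43), Prol1 (-6.13), Ambn (6.19) and Enam (4.37), so that neighbours in the cluster stood at opposite ends of the scale. In the second cluster of the family, which serves dentin and bone, all 6 genes were measured (78.6% of all genes were). In order they were Sparcl1 (5.33), Dspp (4.90), Dmp1 (1.30), Ibsp (-0.24), Mepe (-4.39) and Spp1 (4.13).

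Among keratins, 3 genes stood far above the rest. Krt5, the partner of Krt14 in basal cells, was at 6.33, 6.73, 5.90 and 6.35, and Krt17, a keratin of skin appendages, at 6.34, 6.58, 5.74 and 6.31. With Krt14 they lay between percentiles 99.2 and 99.5, and the next, Krt18 (2.88), was lower by more than 3 log2 units, a gap wider than the spread of any of them over the arrays. Krt8 (2.72 ± 0.43) and Krt15 (2.66 ± 1.03, SD, n = 4 each) came after it. The list of basal and simple keratins, with 16 of 19 genes measured, also held keratins of hair such as Krt25, Krt27, Krt71 and Krt75. Its values therefore do not describe basal and simple keratins alone. The lowest measured member was Krt84, a hard keratin, at -4.54. Keratins and envelope proteins of cornifying layers were mostly dim or not measured, with 13 of 24 genes measured (78.6% of all genes were) and a median level of -2.42. Sprr2a1 (5.80), Krt13 (2.59), Tgm1 (2.18), Sbsn (1.004) and Dsg1a (-0.30) led that list, and Tgm3 was lowest (-6.31). Krt4, Flg2, Sprr1b, Sprr3, Dsc1, Lce1a1 and Rptn were well above background on no array. The Sprr2a1 probe can also read other members of its family, and the gene's second probe was at -5.62. Over the whole keratin family, 25 of 39 genes were measured (78.6% of all genes were), and 3 of these 25 lay among the highest 10% (10% of all, by construction).

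Genes of adhesion to the basement membrane and between cells were mostly bright, with 23 of 24 measured, a median level of 2.58 and 7 among the highest 10%. Perp, a desmosome protein needed for enamel, was at 5.84, 5.92, 5.70 and 6.02. The hemidesmosome genes Itgb4 (4.55 ± 0.14) and Col17a1 (4.54 ± 0.21) and the tetraspanin gene Cd9 (4.51 ± 0.23) were also among the highest 10% (SD, n = 4 each), and plakoglobin, Jup, was lowest at -2.27. Tight-junction genes were lower, with 21 of 26 measured and a median of -2.82. F11r (3.89) and Cldn10 (3.58) stood at percentiles 92.5 and 90.2, and Cldn5 (1.30) and Cldn1 (0.49) were lower. Cldn19 was lowest at -5.63, and Cldn16, which is mutated in a human disease with enamel defects, was well above background on no array, as were Cldn18 and Cldn22.

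**Figure D2:**
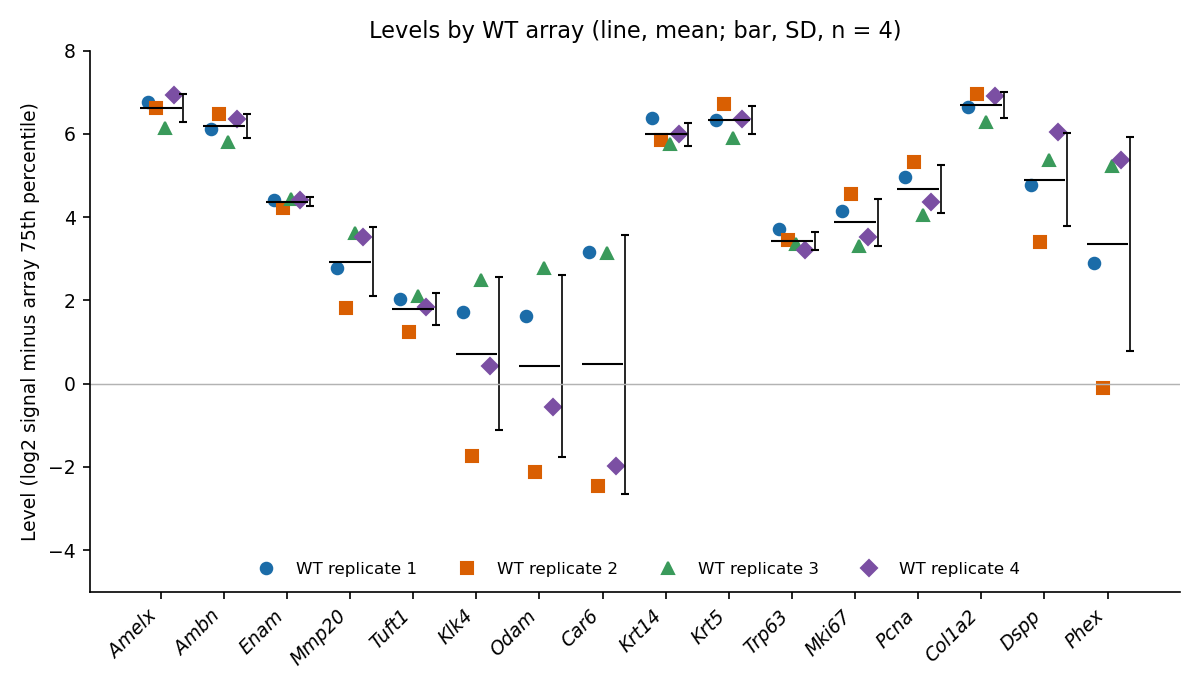
Levels of 16 genes on each WT array (log2 signal minus the array's 75th percentile), with the mean as a line and the SD (n = 4) as a bar. Amelx, Ambn, Enam and the keratins hold a narrow band on all arrays, whereas Klk4, Odam, Car6 and Phex are spread over more than 4 log2 units.

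Transcription factors of tooth development were measured for 49 of 51 genes, with a median level of 1.61 (percentile 69.0). Sp6, a zinc-finger factor without which enamel does not form, was the highest at 6.20, 6.29, 5.73 and 6.11, in the same range as the keratins. Cbfb, the partner subunit of RUNX factors, was at 4.70 ± 0.23, Id3 at 4.44 ± 0.29, Klf4 at 4.32 ± 0.15 and Epas1 at 4.03 ± 0.38 (SD, n = 4 each). Among factors that mark the dental epithelium, Msx2 was at 3.59, Tbx1 at 3.31 and Isl1 at 2.60. The 3 genes for RUNX factors were below the middle of the range, with Runx1 at -0.77, Runx3 at -2.59 and Runx2 at -3.01. Gata3 was the lowest of the list at -4.53. Of the 49 measured members 7 lay under -3.08 (17.8% of all measured genes did), Sox2 (-3.63) among them. The list kept a median SD of 0.27, close to that of all genes.

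Genes tied to cervical loop stem cells and progenitors were all measured (29 of 29), but ranked low, with a median level of -0.92 and a median percentile of 35.8. Cd24a, a surface glycoprotein, was highest at 5.27, followed by Igfbp5 at 4.05 and Shh at 3.37. Sox2, a marker of incisor epithelial stem cells, was at -3.09, -3.77, -3.69 and -3.98, and the WNT inhibitor Sfrp5 at -2.93, -3.14, -3.35 and -3.81. Lgr5, a receptor gene of stem cells, was at -6.10, -5.97, -7.06 and -3.88, the lowest of the list. These genes were well above background on all arrays and still lay within the range of the measured olfactory receptors. Bmi1, the gene that the study deleted in its other group, was at 1.16, 1.27, 1.20 and 1.25 here and stayed within a narrow band (SD 0.05, n = 4). A level over the whole epithelium does not show the level within stem cells.

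Genes of cell division were bright. All 40 mitosis and replication genes were measured, with a median level of 1.80 (percentile 71.5). Mcm6, a helicase subunit of DNA replication, was at 4.99, 5.31, 4.44 and 4.52. Pcna, the sliding clamp of DNA polymerase, was at 4.96, 5.32, 4.04 and 4.36. Mki67, the proliferation antigen, was at 4.14, 4.55, 3.30 and 3.52. In each of these 3 genes replicate 2 was highest, replicate 1 next, and replicates 3 and 4 were lower. Birc5 (3.85 ± 0.76) and Mcm7 (3.76 ± 0.45) followed (SD, n = 4 each), and the lowest was the mitotic kinesin gene Kif11 at -2.09. Their promoters are shown to contrast with those of the enamel genes, drawn in the same way, with the windows chr7:135716360-135716479 for Mki67, chr2:132253161-132253280 for Pcna and chr1:128359686-128359805 for Mcm6, all on the minus strand.
Mki67: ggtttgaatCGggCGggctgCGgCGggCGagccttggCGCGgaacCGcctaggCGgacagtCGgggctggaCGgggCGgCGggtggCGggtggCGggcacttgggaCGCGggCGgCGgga
Pcna: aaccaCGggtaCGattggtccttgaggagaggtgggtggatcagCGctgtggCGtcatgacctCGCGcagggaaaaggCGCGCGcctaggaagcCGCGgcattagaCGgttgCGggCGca
Mcm6: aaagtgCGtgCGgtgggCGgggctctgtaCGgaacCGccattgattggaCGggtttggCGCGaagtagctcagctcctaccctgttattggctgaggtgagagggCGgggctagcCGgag
These stretches hold 19, 14 and 10 CpG dinucleotides, and their full windows hold 32, 26 and 21. Among the 28 genes of the list with 1 promoter the median was 24 CpG, the lowest count was 8, and none held TATAAA.

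Signalling genes were read in the order ligand, inhibitor, receptor and target. In the WNT pathway, which controls tooth number and epithelial growth, 51 of 55 genes were measured, with a median level of 0.22. The ligand gene Wnt10a, mutated in people with missing teeth, was the highest of the list at 4.97, 4.71, 5.32 and 5.48, and Wnt6 was at 3.92, while Wnt9b was lowest (-6.23) and Wnt16 was on no array. Secreted inhibitors were among the brightest members, with Sfrp2 at 5.51, 5.75, 4.18 and 4.93, Wif1 at 4.31 ± 0.11 and Sostdc1 at 4.03 ± 0.32 (SD, n = 4 each). The agonist gene Rspo1 was at 4.19 and the signal carrier Ctnnb1 at 4.76, and Rspo3 was on no array. The feedback target Axin2 was at -2.26, -0.99, -0.64 and -2.28, at percentile 29.9 on average. Its mean was -2.27 on the slide of replicate 4 and -0.82 on the other slide. By limma this difference had an unadjusted p of 0.0019 and an adjusted p of 0.55, so it was not called. The Axin2 probe was dimmer than those of Wnt10a, Wnt6 and the named inhibitors. Because probes differ in how well they bind, this does not compare amounts of ligand and target RNA, and pathway activity was not tested.

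In the hedgehog pathway, which relays signals from progenitors and pre-ameloblasts to their neighbours, 17 of 18 genes were measured, with a median level of -0.95. The ligand gene Shh was at 3.68, 3.78, 2.71 and 3.30, and the transducer gene Smo at 5.05, 5.19, 4.88 and 4.94. Gli3 (2.82 ± 0.23), Gas1 (0.74 ± 0.87) and Cdon (0.54 ± 0.09) came next (SD, n = 4 each). The receptor and target gene Ptch1 was at -2.89 ± 0.18 and the target Gli1 at -0.95 ± 0.17 (SD, n = 4 each), which are percentiles 18.9 and 35.5. Disp3 was lowest at -5.91, and Ihh was on no array.

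In the BMP and activin pathway, whose ligands steer ameloblast differentiation, 36 of 39 genes were measured, with a median level of 1.21. Fstl1, a secreted follistatin-like protein, was highest at 5.89. Tgfb3 was at 4.17, 4.34, 5.17 and 5.60, and its levels on replicates 1 and 2 lay below those on replicates 3 and 4. The intracellular genes Id3 (4.44) and Smad5 (4.20) and the ligand gene Bmp7 (4.11) followed. Bmp4 was at 2.11 ± 0.24 and Bmp2 at -0.47 ± 0.31, and follistatin, Fst, which restrains activin, at -2.79 ± 0.27 (SD, n = 4 each). Grem1 was lowest at -4.76, and Bmpr1b was on no array.

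FGF genes were dimmer, with 23 of 27 measured and a median level of -2.32. The feedback phosphatase gene Dusp6 was at 4.62, 4.71, 4.13 and 4.16, and the receptor genes Fgfr3 (2.24), Fgfr2 (1.36), Fgfr1 (1.22) and Fgfrl1 (1.19) lay above the middle of the range. The ligands were lower, with Fgf9 at -1.26, Fgf10, a mesenchymal ligand for the cervical loop, at -2.29, and Fgf3 at -3.36. Spred2 was lowest at -5.85, and Fgf20 and Fgf22 were on no array. In the ectodysplasin pathway, which sets the number and shape of teeth and hairs, 7 of 8 genes were measured. Tnfrsf19 (4.01), Nfkbia (3.11), Relb (0.45), Traf6 (-1.66) and Ltb (-2.08) were its highest members, the ligand gene Eda was at -3.01, Edaradd was lowest at -3.44, and Eda2r was on no array.

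The layers beside the ameloblasts were represented by Notch genes and their companions, with 22 of 22 measured and a median level of 0.86. Hey1, a Notch target, was at 4.57, 5.35, 5.02 and 5.31. Alpl, the alkaline phosphatase of the stratum intermedium, was at 4.24, 5.12, 4.33 and 4.59. Both genes were highest on replicate 2. Sdc1 (4.02), Cd44 (3.27) and Thbd (1.99) followed, and Fosb was lowest at -5.02. Of the receptors, Notch2 was at 1.74 and Notch1 at -3.07, and of the ligands Jag1 was at 1.64 and Jag2 at 1.09.

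Ion and mineral transport by ameloblasts covered the whole scale. Of 34 genes 31 were measured, with a median level of 0.53, 5 among the highest 10% and 8 below the receptor yardstick (17.8% of all measured genes were). Calb1, the calcium buffer calbindin that is abundant in ameloblasts, was at 6.10, 6.79, 5.78 and 6.28. The calcium release channel gene Itpr3 was at 5.003, with Itpr1 next. By contrast the exchanger gene Slc24a4, which carries calcium into maturing enamel, was at -4.61, -4.96, -2.78 and -4.98, and Wdr72, a vesicle gene of the same stage, at -2.48, -5.24, -2.04 and -4.44. Both were highest on replicate 3. Slc26a9 was lowest at -6.02, and Slc26a3 was on no array. Among 18 genes outside the matrix whose loss gives enamel defects, 17 were measured, with a median of 0.22. Sp6, Ctnna1 (4.98), Ltbp3 (4.599), Tmem165 (4.10) and Pex6 (2.43) led that list, and Slc24a4 was its lowest.

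Mouse incisors are pigmented by iron that ameloblasts store in ferritin, and ferritin genes were bright. Of 19 iron genes 18 were measured, with a median level of 1.64. The ferritin heavy-chain gene Fth1 was at 6.28, 6.59, 5.80 and 6.32, and the light-chain gene Ftl1 at 5.09, 4.36, 5.10 and 4.90. Pcbp1 (5.14) and Pcbp2 (3.83), which deliver iron to ferritin, and the transporter gene Slc39a8 (2.96) followed. The exporter gene Slc40a1 was at 1.32, 0.70, 1.93 and 2.44, Steap3 was lowest at -4.87, and the hormone gene Hamp was on no array. Ferritin has many processed copies in the genome, and which copies a probe reads was not tested.

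The machinery of secretion ranked among the highest groups. All 39 genes of endoplasmic reticulum folding and translocation were measured, with a median level of 3.77 (percentile 91.6), and 20 of them lay among the highest 10%. Erp29, an endoplasmic reticulum protein that aids secretion, was at 6.12, 6.34, 6.12 and 6.57. Hsp90b1 was at 5.83 ± 0.16, and the translocon genes Sec61b, Sec61g and Sec61a1 at 5.53, 5.51 and 5.38. The stress sensor gene Ern1 was lowest at -2.17. Among 32 genes of the vacuolar proton pump and the lysosome, all measured, the median was 3.38, with Atp6v1g1 (5.68), Ctsl (5.46), Ctsb (5.37), Atp6v1f (5.35) and Cd63 (5.17) on top. Atp6v0d2, the pump subunit of osteoclasts, was lowest at -5.60, while 7 of 9 osteoclast and bone markers were measured, from Spp1 (4.13) and Acp5 (0.55) at the top to Dcstamp (-5.19).

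**Figure D3:**
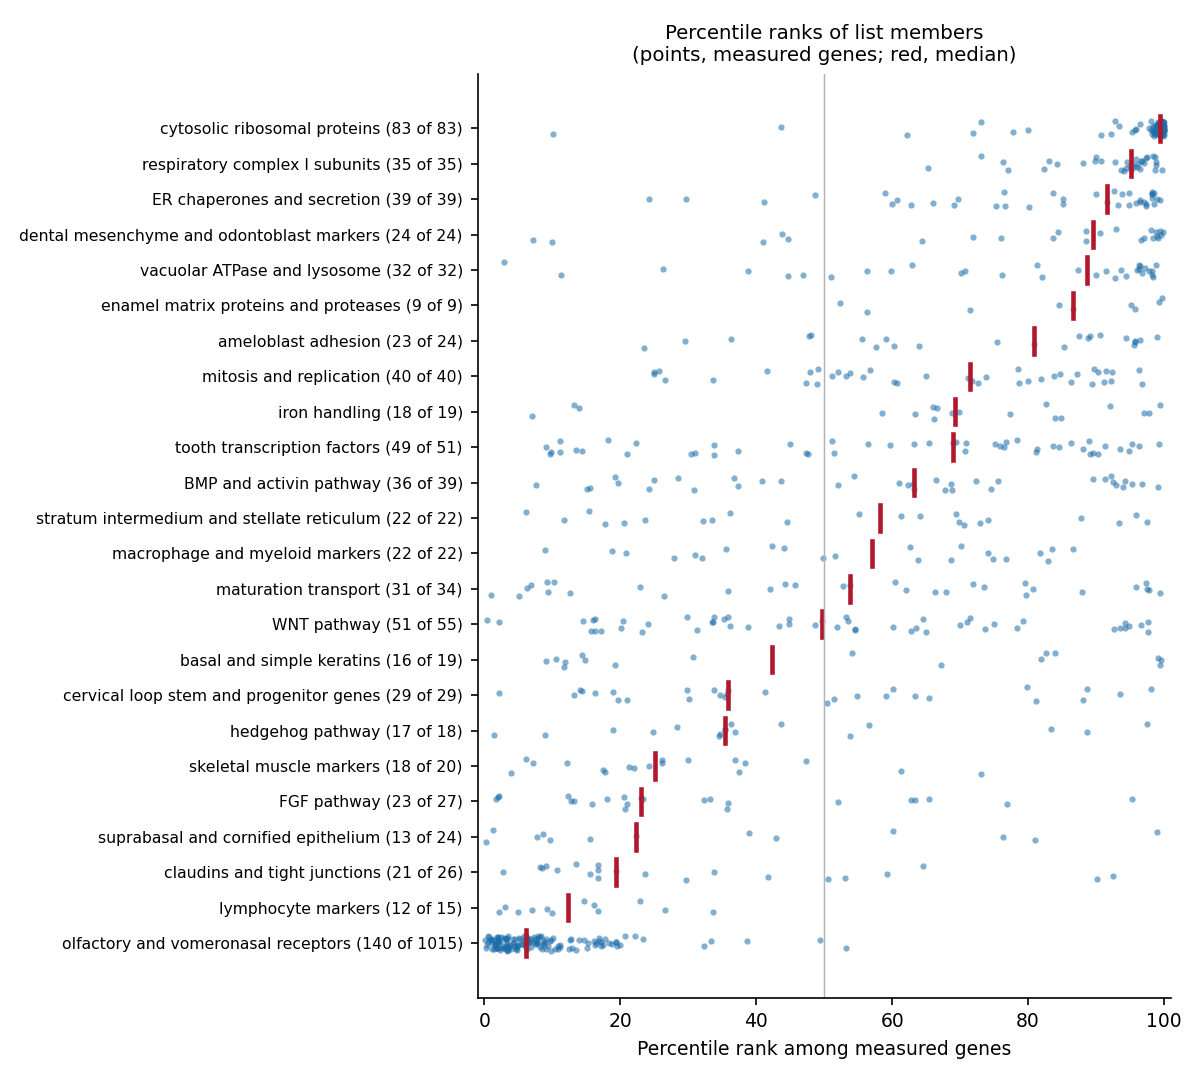
Percentile rank among the 13498 measured genes of the members of 24 gene lists, with a point for each measured member, a red line at the list's median and the number measured of those on the array in brackets. Cytosolic ribosomal proteins have a median of 99.5 and olfactory and vomeronasal receptors one of 6.12, and enamel matrix genes and mesenchyme markers have medians of 86.6 and 89.6, an order that turns when a gene's probes are averaged (90.7 and 83.4). The list of basal and simple keratins also holds keratins of hair.

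The very highest levels belonged to the protein-synthesis machinery. Of the 25 highest genes 20 encode cytosolic ribosomal proteins, led by Rpl41 (7.36 ± 0.47), Rps18 (7.24 ± 0.59) and Rpl7a (7.16 ± 0.57, SD, n = 4 each), and of the 100 highest 45 do. The other 5 of the 25 were Mfge8 (7.11), which encodes a secreted glycoprotein, the mitochondrial tRNA synthetase gene Lars2 (7.04), the myosin light-chain gene Myl6 (6.92), the cyclophilin gene Ppic (6.91) and the respiratory-chain gene Cox6a1 (6.80). Lars2 was at 7.17, 8.21, 5.44 and 7.33, and its SD of 1.16 was the widest of the 25. Of 83 cytosolic ribosomal protein genes 76 lay among the highest 10%, and the lowest was the muscle paralogue Rpl3l at -4.36. These genes have many processed pseudogenes, and their probes may read more than 1 copy. Mitochondrial ribosomal proteins (78 of 78 measured, median 2.35), complex I subunits (35 of 35, median 4.39) and proteasome subunits (37 of 38, median 3.69) also lay above the median of all genes. Of commonly used reference genes, Rplp0 (6.85), Tubb5 (6.40), Eef1a1 (6.22) and Gapdh (4.78) were bright and Tbp was lowest (-1.93).

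At the other end, Hox genes, which pattern the trunk and not the front of the jaw, were measured for 5 of 36 genes (78.6% of all genes were). On no array were 21 of them (14.3% of all genes). Hoxb3 (-0.48), Hoxa3 (-2.70), Hoxd8 (-5.05), Hoxa7 (-5.33) and Hoxd4 (-5.44) were those measured. Of the olfactory and vomeronasal receptors 687 of 1015 were on no array, and the highest measured ones were Olfr1383 (0.49) and Olfr571 (0.20).

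Promoter content differed along the scale of levels, as a description over the 11248 genes with 1 RefSeq promoter. The median CpG count per 300 bases was 2 for genes on no array, 7 in the lowest 10% of measured genes and 22 in the highest 10%. TATAAA on either strand was found in 29.6%, 16.8% and 10% of these windows, and in 13.1% of all 11248. Among deciles of measured genes the share was smallest in decile 6, at 5.31%. Olfactory and vomeronasal receptors make up much of the unmeasured genes, with a median of 1 CpG and TATAAA in 41.3%, and without them the genes on no array had a median of 4 and a share of 23.2%. Keratin promoters had a median of 6 CpG and TATAAA in 50% (24 genes), and those of mesenchyme markers a median of 6 and 40% (15 genes). The median counts of the enamel, keratin and mesenchyme lists were nearer to the 2 of genes on no array than to the 22 of the highest 10%.

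**Figure D4:**
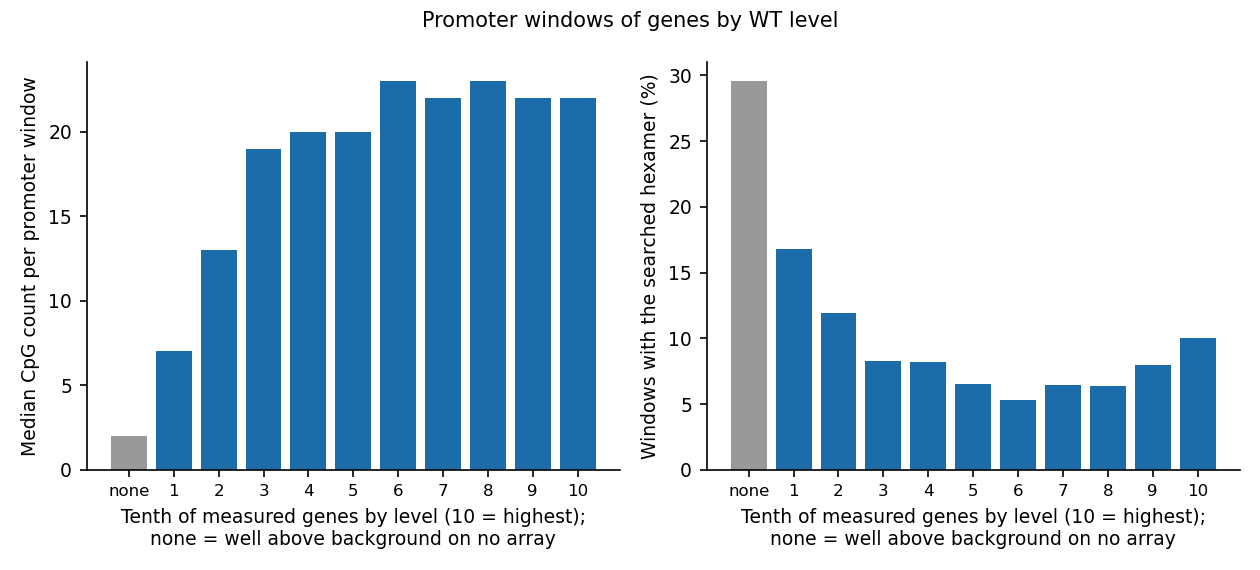
Median CpG count (left) and share of windows with the searched hexamer (right, percent) in the 300-base RefSeq promoter windows of genes by level, from genes on no array (grey) through deciles of the measured genes (blue, 10 is the highest). The CpG count rises from 2 to 22, and the hexamer share falls from 29.6% to 5.31% in decile 6 and is 10% in the last.

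The 4 arrays differed among themselves in a minority of genes. An SD over 1 was found for 262 measured genes (1.94%). Replicate 2 held the lowest value of 125 of them (27.8% of all genes were lowest there) and replicate 3 the highest of 90 (19.8% of all). The widest was Car6, which encodes a secreted carbonic anhydrase of saliva, at 3.18, -2.47, 3.14 and -1.99, so that replicates 1 and 3 were high and replicates 2 and 4 low. Phex, an endopeptidase gene of odontoblasts and osteoblasts, was at 2.90, -0.09, 5.23 and 5.38. Adamtsl2 (1.11, -1.74, 3.04 and 3.20), Mapt (0.47, -1.60, 2.96 and 3.28), Creg2 (-3.27, -5.24, -0.90 and 0.02), Loxl4 (-4.08, -5.70, -0.64 and -1.60) and Slc38a11 (-2.76, -3.94, 0.57 and 0.51) shared with Phex a lowest value on replicate 2, and all but Creg2 and Loxl4 lay close together on replicates 3 and 4. In Creg2, Loxl4 and Slc38a11 the lowest array lay below the receptor yardstick of -3.08 and replicates 3 and 4 above it.

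The other 3 of the 10 widest genes were dim and moved with the slide. Replicates 1 and 4 were on 1 slide and replicates 2 and 3 on the other. Rtbdn was at -6.32, -1.21, -1.60 and -6.18, F7 at -5.43, -1.12, -1.56 and -5.92 and Llcfc1 at -6.31, -2.06, -1.79 and -5.75. Each was high on replicates 2 and 3. With the main scaling, the measured olfactory and vomeronasal receptors moved in the same way, with means of -5.15, -4.10, -4.53 and -5.04. Replicate 2 was highest in 108 of 140 (33.6% of all genes were). Replicate 1 or 4 was lowest in the most (82 and 51, against 18.3% and 17.4% of all genes). Under normexp background correction their means were -3.58, -2.68, -3.62 and -3.40. Replicate 3 was then lowest in 90 of 140 (6065 of all 13498 genes were) and only replicate 2 stood high. For these receptors the pattern by slide therefore depended on the background correction. The lowest 10% of measured genes also shifted under the main scaling. Their median deviations from each gene's own mean were -0.14, 0.25, 0.004 and -0.14 on replicates 1 to 4. The yardstick of -3.08, taken from means over the arrays, is therefore not the same on each array. Across all measured genes, limma with Benjamini-Hochberg adjustment called 0 of 13498 genes between the slides at 5% (0.0%), with a smallest adjusted p of 0.0905, and 628 genes had an unadjusted p under 0.05, which is under 5% of the genes tested. With a replicate left out, so that 1 slide kept a single array, that number ranged from 230 (without replicate 1) and 282 (without replicate 4) to 1247 (without replicate 2) and 1648 (without replicate 3). At 10%, 6 genes passed, all higher on the slide of replicates 2 and 3, among them these 3. The slide was tested on the WT arrays only.

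Genes of cell division moved together. The mean level of the 40 genes was 1.95, 2.17, 1.06 and 1.05 on replicates 1 to 4, and the median SD of the list was 0.62 against 0.26 for all genes. Replicate 2 was highest in 31 of the 40 genes and replicate 1 in the other 9, where 33.6% and 24.2% of all measured genes were highest on these arrays. Replicate 3 was lowest in 21 and replicate 4 in 19, against 36.4% and 17.4% of all genes. Under quantile normalization the means were 1.94, 2.13, 1.09 and 1.04, and replicates 1 and 2 still held every highest value. Each slide carried a high and a low array. The Y-linked gene Eif2s3y was at 2.49 and 2.41 on replicates 1 and 2 and not well above background on replicates 3 and 4, while the X-inactivation gene Xist was at -0.82 and -0.60 on replicates 3 and 4 and not well above background on replicates 1 and 2. Ddx3y, Kdm5d and Uty were likewise well above background on replicates 1 and 2 only. What part such differences between the samples had in the levels of the division genes was not tested.

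Enamel matrix genes were lowest on replicate 2, with list means of 3.68, 2.49, 3.96 and 3.54, and replicate 2 was lowest in 7 of the 9 genes (27.8% of all). Under quantile normalization all 9 were lowest on replicate 2, with means of 3.67, 2.38, 4.18 and 3.50. Macrophage and myeloid markers had means of 0.28, -0.12, 0.36 and 0.91, and replicate 4 was highest in 18 of 22 (22.4% of all), and in 16 under quantile normalization. Endothelial markers were highest on replicate 4 in 14 of 17, and genes of the vacuolar pump and lysosome, some of which macrophages transcribe strongly, in 24 of 32 (18 under quantile normalization). Skeletal muscle markers were higher on replicates 1 and 4, with means of -1.49, -2.53, -2.62 and -1.65. These are the arrays of 1 slide, so sample and slide cannot be told apart here. Mesenchyme and odontoblast markers were highest on replicate 4, with means of 2.85, 2.75, 3.15 and 3.33, and under quantile normalization on replicate 3 (2.86, 2.63, 3.37 and 3.30). The means of the WNT list (0.11, 0.15, 0.15 and 0.09) and of the hedgehog list (-0.63, -0.60, -0.63 and -0.63) were nearly level over the same arrays. A level mean does not make each gene steady: the median SD was 0.35 in the WNT list and 0.25 in the hedgehog list, against 0.26 for all genes.

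Cytosolic ribosomal proteins also appeared to differ, with means of 5.64, 6.16, 5.18 and 5.70. Replicate 2 was highest in 73 of 83 (33.6% of all genes) and replicate 3 lowest in 78 (36.4% of all genes). The size of this gap depended on the scaling. Among the highest 10% of all genes the median gene was 0.11 above its own mean on replicate 2 and fell by 0.18 on replicate 3. Under quantile normalization the means were 5.66, 5.75, 5.58 and 5.64. Replicate 2 was then highest in 47 (3946 of all 13498 genes) and replicate 3 lowest in 35 (4300 of all). No order of the arrays is read from these genes.

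**Figure D5:**
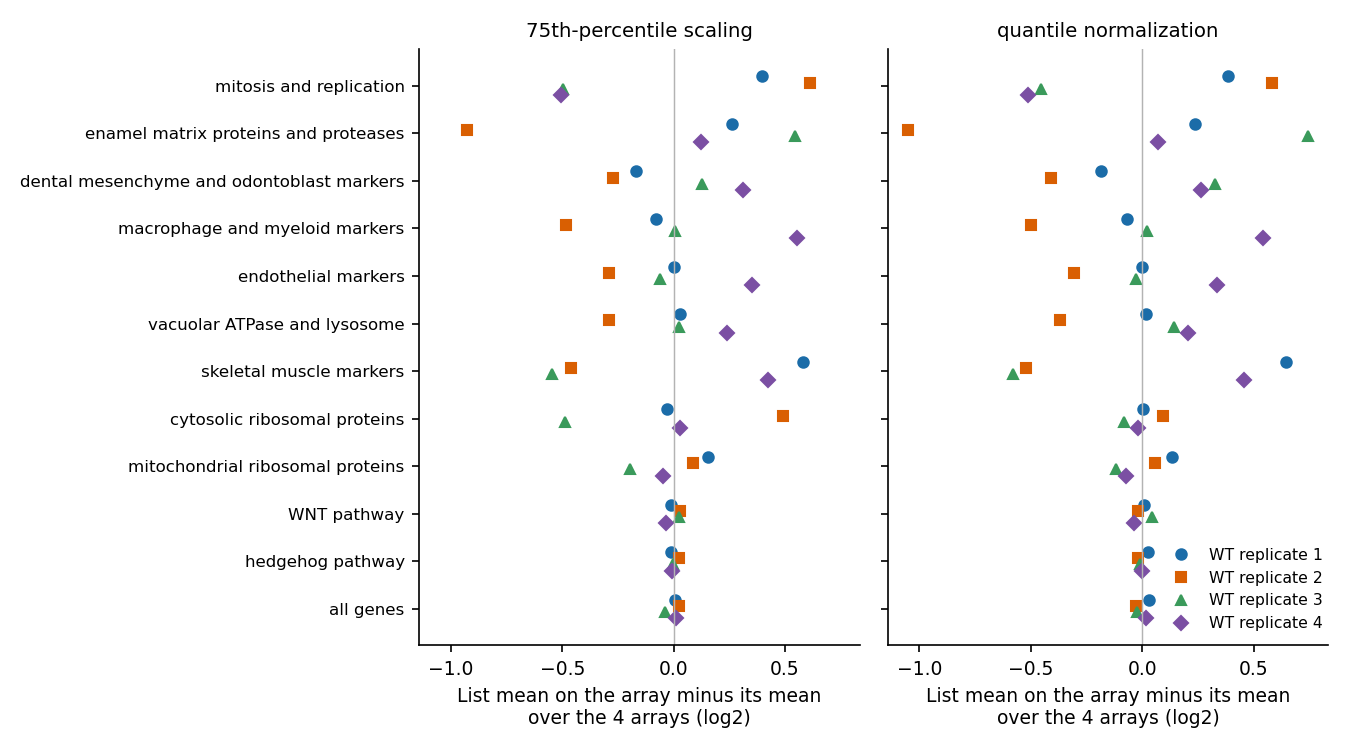
Mean level of 12 gene lists on each WT array as a difference from the list's own mean over the 4 arrays (log2), with 75th-percentile scaling on the left and quantile normalization on the right. Cell division genes lie above 0 on replicates 1 and 2 and below it on replicates 3 and 4 in both panels, enamel genes are lowest on replicate 2 in both, and the spread of the ribosomal proteins on the left shrinks on the right.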

How the data were processed

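Each of the 4 WT samples was read on 1 single-colour array of 41174 noncontrol probes. Per the file headers, the deposited spot intensities came from Feature Extraction 10.5.1.1, which corrected the processed signal for background within an array, with no scaling between arrays, and its calls per spot (well above background, outlier, saturated) were used as deposited. The authors' deposited series matrix holds log2 values, found here to follow each array's raw median signal in rank and to share their distribution over all 8 arrays, as quantile normalization gives. It served as an alternative.

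Outlier spots were left out, which cost 14 probes, and no spot was saturated. Probes were named through their accession and the RefSeq gene table: 24844 of 41174 matched a symbol, giving 17178 genes, and 16330 did not. The RefSeq table and promoters are of GRCm38.p6, while the files' grid names mm9, so the table served only for names and order of genes. Levels, ranks and SDs describe 1 group and carry no test. The only test was the slide, with limma 3.58.1 in R 4.3.3 (lmFit and eBayes with an intensity trend, two-sided, Benjamini-Hochberg adjustment over 13498 genes at 5%). Tables were made with Python 3.11.15, numpy 2.4.6 and pandas 2.3.3 and figures with matplotlib 3.10.9, and the scripts were tested on simulated data. With 4 arrays the number of samples limits the precision.

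The gene lists and members were chosen with earlier results of these data known. The genes named by rule were the 4 markers, the 25 highest genes, the 10 with the widest SD, the 5 highest and the lowest member of each list, members on no array and the 5 widest gaps between probes. Other genes with values (such as Sox2, Bmi1, Axin2, Msx2, the RUNX genes, Bmp2, Bmp4, Wdr72 and Xist) were added for their known roles after values had been seen. Some genes that the rule names are not reported here. The alternatives were normexp background correction (offset 50, on the median signal), quantile normalization, the median over probes detected on every array as the scaling point, no filter on dim probes or a filter of 3 arrays, the mean or median over a gene's probes, the series matrix values, and each replicate left out in turn, and for the slide also no intensity trend and a 10% threshold.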

Additional observations from a re-analysis of the deposited data

Results flagged for a closer look

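Among 210 named genes and 37 lists, 11 had a lone array whose gap to the nearest of the other 3 exceeded Dixon's 95% critical value, as a share of the range. Chance flags about 1 in 20 groups of values, a rate that these 11 do not exceed. On replicate 2, Actb stood at 0.16 (others -1.69 to -1.56), Pcbp1 at 5.69 (others 4.90 to 5.01), Enam at 4.22 (others 4.41 to 4.45), Hoxa7 at -6.19 (others -5.11 to -4.99) and Rpl3l at -5.08 (others -4.17 to -4.08). On replicate 3, Slc24a4 stood at -2.78 (others -4.98 to -4.61) and Olfr1383 at -0.45 (others 0.69 to 0.86). On replicate 4, Robo4 stood at 3.03 (others 2.56 to 2.63).

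Of the lists, the mean of the cornified epithelium genes was -1.44 on replicate 3 (others -1.72 to -1.68), that of the endoplasmic reticulum genes 3.29 on replicate 4 (others 3.13 to 3.15), and that of the nerve and Schwann cell markers 0.096 on replicate 3 (others 0.31 to 0.35). No cause of these gaps was tested.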

How the results depend on the processing

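With the mean or the median over a gene's probes in place of the brightest, Trp63 fell from percentile 89.1 to 58.2 and 58.0, Ambn was at 99.5 under both (99.3 in the main setting), and the median percentile of the mesenchyme markers was 83.4 and 83.2 in place of 89.6, while that of the enamel matrix genes was 90.7 and 90.6 in place of 86.6, so that their order turned. With no filter on dim probes, Ambn was at 99.5 and Trp63 at 91.5, among more genes. Between slides, 0 genes were called in the main setting, against 6 at a 10% threshold and 4 of 17168 with no filter on dim probes, and 0 under the other alternatives. Leaving out a replicate left 1 array on a slide and 1 residual degree of freedom, so its 0 calls say nothing about stability. For lists, values moved by no more than the spread between arrays in 360 of 444 median levels and 318 of 420 median percentiles. For named genes this held in 2348 of 2520 levels and 2085 of 2472 percentiles. Leaving out 1 of 4 arrays shifts a probe's mean by less than its SD, so those level comparisons could not count as moved. Changing the filter on dim probes also moved 0 of 210 levels. Averaging probes within genes moved 47 of 210 levels and 112 of 206 percentiles. The pooled counts for named genes therefore overstate stability. The median SDs of lists stayed within 1.5 times their value in 428 of 444 cases. Signal limits the low end: 2396 measured genes lay below -3.08, where probes of measured olfactory receptors also read. That yardstick rests on the 140 of 1015 receptor genes that passed the same filter, and so does not give the level of a typical receptor probe. No paired analysis was possible because a single group was described, so no samples of another group could share its replicate numbers.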

Other observations

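Some of the brightest signal belongs to probes that could not be named here. Of the 100 brightest measured probes, all at or above a level of 6.29, 18 matched no gene symbol, as did 149 of the brightest 1000 (14.9%) and 7995 of all 27515 measured probes (29.1%). These probes enter none of the gene counts or ranks above.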
